A study of Mus musculus with 8 samples.

Results

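The genes described are Clec4e, which encodes the C-type lectin receptor Mincle, and 6 genes of the same signalling route: Clec4d, Clec4n, Clec7a, Fcer1g, Syk and Card9. They are 7 of the 21848 genes listed in the count matrices, and each was found by its symbol, with a gene identifier that matched the GENCODE annotation. Clec4e was selected on its measured counts, being higher in border-associated macrophages of mice given ancrod than of mice given saline in an earlier analysis of these libraries, and the other members were chosen as its partners. The values of all 7 genes in that comparison are therefore given as a description, with no test. Tests are given in the other myeloid classes.

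Single cells came from the lesion in the right sensorimotor cortex together with adjoining spared tissue, taken on day 6 after photothrombotic stroke (PT), in which light over a 4 mm field closes cortical vessels filled with a photosensitive dye. All 8 mice were adult and injured. The labels give them as female with the genotype Bl/J6, while C57BL/6N mice of both sexes are named in the study's methods, and this was not settled. Control mice (n = 4) received saline and the others (n = 4) received 2.4 U ancrod per day, an enzyme that depletes plasma fibrinogen, from osmotic minipumps implanted 2 days before PT. The meninges were removed before dissection, myelin was removed with beads and no cell type was enriched. There were no uninjured mice. The libraries formed 2 batches, with mouse 4 of each group in batch 2 and the other mice in batch 1.

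Mincle has a very short cytoplasmic tail and signals through the Fc receptor gamma chain, the product of Fcer1g. The activation motif of this chain recruits the tyrosine kinase Syk, which acts through the scaffold Card9 and its partners Bcl10 and Malt1 on NF-kB and so on cytokine and chemokine genes. MCL (Clec4d) and Dectin-2 (Clec4n) use the same gamma chain, while Dectin-1 (Clec7a) carries a signalling motif of its own and reaches Syk and Card9 without it. These receptors bind glycolipids and glucans of microbes, and Mincle also binds a protein released by dead cells, encoded by Sf3b3. In the injured brain the route is known mainly from microglia and from myeloid cells that enter from the blood.

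Clec4n, Clec4d and Clec4e lie next to each other on chromosome 6 of GRCm39, at 123206802 to 123223980, 123239070 to 123252230 and 123258748 to 123266829. Gaps of 15.1 and 6.52 kb separate them, and Clec4e is read from the minus strand while the other pair is read from the plus strand. Clec7a is on the same chromosome at 129438554 to 129449742 (minus strand). Fcer1g is on chromosome 1 at 171057141 to 171062219 (minus strand), Syk on chromosome 13 at 52736696 to 52802828 (plus strand) and Card9 on chromosome 2 at 26242188 to 26250930 (minus strand). The canonical transcripts hold 6 exons in each gene of the Clec4 trio, 5 in Clec7a and in Fcer1g, 14 in Syk and 13 in Card9. The trio is given by the 250 bases before the start of each canonical transcript, 5′ to 3′ on the strand of the gene, because Clec4e and Clec4d had like patterns over the myeloid classes and Clec4n did not. The windows are chr6:123266830-123267079 for Clec4e, chr6:123238826-123239075 for Clec4d and chr6:123206552-123206801 for Clec4n. Capitals mark letters that match a motif searched on both strands.
Clec4e: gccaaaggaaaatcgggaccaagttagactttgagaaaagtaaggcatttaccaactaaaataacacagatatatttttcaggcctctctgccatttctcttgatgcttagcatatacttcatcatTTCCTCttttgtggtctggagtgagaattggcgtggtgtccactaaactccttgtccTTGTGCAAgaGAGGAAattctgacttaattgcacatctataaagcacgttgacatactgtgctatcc
Clec4d: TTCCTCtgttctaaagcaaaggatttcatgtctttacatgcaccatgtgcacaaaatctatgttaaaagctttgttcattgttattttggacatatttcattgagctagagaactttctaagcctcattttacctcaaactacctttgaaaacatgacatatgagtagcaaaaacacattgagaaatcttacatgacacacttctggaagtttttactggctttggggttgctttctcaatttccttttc
Clec4n: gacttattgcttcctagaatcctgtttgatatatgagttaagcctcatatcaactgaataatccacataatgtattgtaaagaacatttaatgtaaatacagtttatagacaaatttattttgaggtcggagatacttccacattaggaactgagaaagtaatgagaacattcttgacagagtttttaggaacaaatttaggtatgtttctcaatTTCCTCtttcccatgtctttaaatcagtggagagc
The motifs were TTGCNNAA for C/EBP factors, GAGGAA for PU.1, GGGA and CC separated by NNNN for NF-kB and TGANTCA for AP-1. The Clec4e window held a C/EBP match 67 to 60 bases before the start, and PU.1 matches 124 to 119 and 57 to 52 bases before it. Clec4d and Clec4n each held 1 PU.1 match, the first at the far end of its window and the second 35 to 30 bases before the start. No matches overlapped. Of 21770 windows of the same length before protein-coding genes, 9.34% held the C/EBP letters, 22.9% those of PU.1, 18.2% those of NF-kB and 6.17% those of AP-1. A match describes letters only and is not evidence of binding.

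Libraries held 97861434 to 142139441 UMIs in total, 1 library per mouse, and those of ancrod mice (126682918 or more) were all deeper than those of control mice (122758649 or less). Droplets with at least 2000 UMIs and less than 20% mitochondrial UMIs numbered 5080 to 6277 per library, 46216 in all, of which 44072 remained after removal of doublets. Any pair of libraries shared at most 15 barcodes. Cells were clustered without the 7 members, and clusters were named from marker genes, with names ending in "-like" because the authors' annotation was not used here. The myeloid classes compared were 15856 microglia-like, 2670 infiltrating macrophage-like, 809 border-associated macrophage-like, 691 monocyte-like, 695 neutrophil-like and 632 conventional dendritic-like cells. A cluster of 848 cells led by Gal, Gpnmb, Spp1 and Lyz2 stayed unnamed and is given beside them. A further 12.9% of all cells, with 2.69% of all Clec4e UMIs, stayed unnamed and entered no class, among them 4062 cells of low UMI counts in clusters whose best markers were those of microglia. Infiltrating macrophage-like cells numbered 180 to 386 per control mouse and 283 to 550 per ancrod mouse. Neutrophil-like cells ranged from 11 to 70 and from 23 to 232, so their values in single mice rest on few cells. A level is the number of UMIs of a gene per 1000000 UMIs of the class in a mouse (counts per 1000000, CPM). Reads in introns were counted and 3′ ends were sequenced, so levels are compared for 1 gene between classes and not between genes.

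Clec4e was highest in neutrophil-like cells, lower in monocyte-like cells, lower again in infiltrating macrophage-like cells and near the limit of detection in microglia-like cells. In neutrophil-like cells its level was 1289, 758, 783 and 1098 CPM in control mice 1 to 4 and 648, 1050, 1038 and 1226 CPM in ancrod mice 1 to 4. In monocyte-like cells it was 173, 274, 273 and 188 CPM in control mice and 248, 205, 200 and 185 CPM in ancrod mice. In infiltrating macrophage-like cells it was 46.7, 84.3, 113 and 57.3 CPM in control mice and 91.9, 76.9, 108 and 75.5 CPM in ancrod mice. The ranges over the 8 mice of these 3 classes did not meet. Means over the 8 mice were 986 ± 232 (SD), 218 ± 40.5 and 81.7 ± 22.9 CPM. Conventional dendritic-like cells (24.5 ± 14.05 CPM), border-associated macrophage-like cells (23.2 ± 15.4 CPM) and the unnamed cluster (22.4 ± 9.13 CPM) overlapped in range with each other, and the dendritic-like range also met that of infiltrating macrophages. Microglia-like cells stood at 2.64 ± 1.65 CPM, and their range met that of the border-associated class alone, through control mice 2 and 4 of the latter. Because the classes were made by clustering, these differences carry no test.

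**Figure D1:**
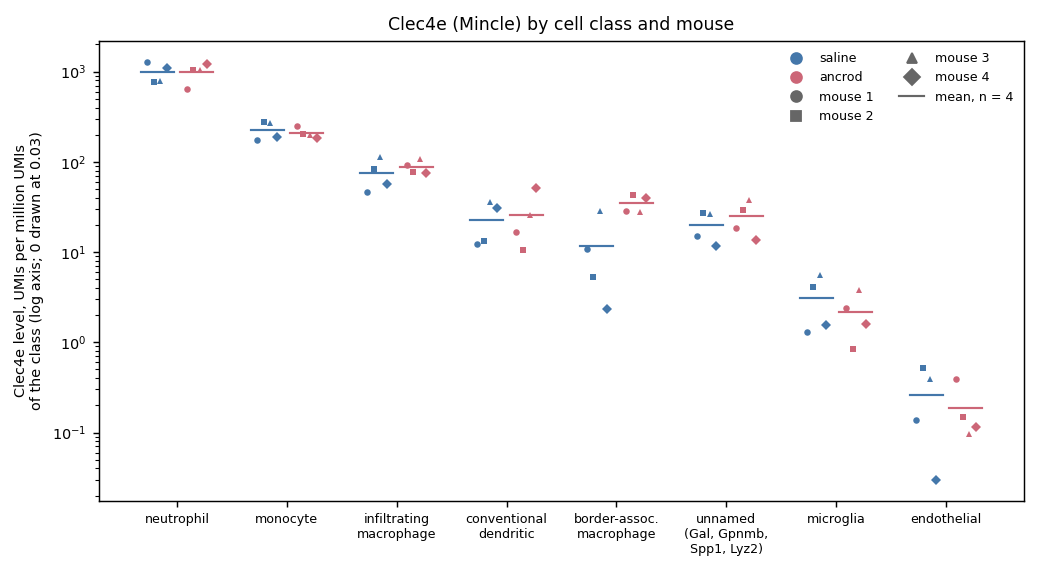
Clec4e level on a log axis, in CPM of the class, in 8 cell classes. Points are mice (shape gives the mouse number, colour the group) and lines are means of 4 mice. The level falls from 986 CPM in neutrophil-like to 2.64 CPM in microglia-like cells, and in border-associated macrophage-like cells the group means are 11.7 and 34.8 CPM.

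Of the 14858 Clec4e UMIs in all kept cells, 39.9% came from infiltrating macrophage-like cells, 24.5% from neutrophil-like cells, which were 1.58% of the cells, and 16.7% from monocyte-like cells. Summed over mice, neutrophil-like cells gave 15.9% and monocyte-like cells 22.9% in control mice, against 29.7% and 12.9% in ancrod mice. The number of cells differed too. Ancrod mice 1 and 2 held 205 and 232 of the 531 neutrophil-like cells of their group. Neutrophil-like cells were 0.743% and monocyte-like cells 1.53% of the cells in control mice, against 2.41% and 1.61% in ancrod mice. The order of this pair was not the same in all control mice: neutrophil-like and monocyte-like cells held 55 and 40 Clec4e UMIs in control mouse 1, 208 and 315 in mouse 2, 379 and 751 in mouse 3 and 255 and 184 in mouse 4, whereas neutrophil-like cells held more in each ancrod mouse. Border-associated macrophage-like cells gave 2.75%. Microglia-like cells gave 5.67% although they were 36.0% of all cells, with 9.38% in control and 3.403% in ancrod mice. They were 39.4% of the cells in control and 32.6% in ancrod mice. A Clec4e UMI was found in 78.5% ± 8.48 (SD, n = 8 mice) of neutrophil-like cells, 68.6% ± 7.54 of monocyte-like cells, 38.7% ± 9.35 of infiltrating macrophage-like cells and 1.41% ± 0.736 of microglia-like cells. Endothelial-like cells, which should lack the gene, had one in 0.348% ± 0.311 of cells. Median depth was 7375 to 17283 UMIs per endothelial-like cell and 11740 to 18365 UMIs per microglia-like cell over the mice. Thinned to 2000 UMIs per cell, the shares were 62.7% in neutrophil-like, 29.6% in monocyte-like, 11.8% in infiltrating macrophage-like, 0.233% in microglia-like and 0.0501% in endothelial-like cells. In droplets with at most 100 UMIs, which hold free RNA, Clec4e stood at 13.4 ± 10.3 CPM in control mice and 16.1 ± 7.67 CPM in ancrod mice, with ranges of 4.05 to 27.5 and 6.36 to 24.6 CPM.

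MCL, the product of Clec4d, can pair with Mincle. Clec4d followed the same order at the top, with 983 ± 378 CPM in neutrophil-like, 200.1 ± 81.6 CPM in monocyte-like and 149 ± 44.3 CPM in infiltrating macrophage-like cells, and the last pair overlapped in range. It was 79.2 ± 12.1 CPM in the unnamed cluster and 71.8 ± 28.8 CPM in border-associated macrophage-like cells, then 9.31 ± 6.01 CPM in dendritic-like and 3.28 ± 1.04 CPM in microglia-like cells. Dectin-2 (Clec4n) differed from both. It was highest in border-associated macrophage-like cells (245 ± 42.9 CPM), which held 22.9% of all its UMIs while being 1.84% of the cells. Neutrophil-like (184 ± 85.9 CPM), monocyte-like (121 ± 32.8 CPM) and infiltrating macrophage-like cells (114 ± 17.8 CPM) overlapped in range with their neighbours in this order. In microglia-like cells Clec4n was 1.17 ± 0.809 CPM.

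Dectin-1 (Clec7a) was the receptor with a clear level in microglia-like cells, at 307 ± 39.9 CPM. These cells held 60.8% of all Clec7a UMIs. Its level was 592 ± 238 CPM in neutrophil-like, 522 ± 112 CPM in monocyte-like and 468 ± 26.5 CPM in the unnamed cluster, then 344 ± 59.4 CPM in infiltrating macrophage-like and 242 ± 75.8 CPM in dendritic-like cells. Each of these ranges met the next one except that the unnamed cluster lay above the infiltrating macrophages. Border-associated macrophage-like cells were lowest, at 125 ± 36.7 CPM.

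The shared adaptor and kinase were present in all myeloid classes. Fcer1g, the gamma chain, ranged from 1177 ± 111 CPM in dendritic-like cells to 3347 ± 256 CPM in the unnamed cluster, and was 2051 ± 145 CPM in microglia-like, 2597 ± 124 CPM in infiltrating macrophage-like and 2361 ± 194 CPM in border-associated macrophage-like cells. Syk was highest in neutrophil-like (664 ± 227 CPM) and monocyte-like cells (595 ± 63.9 CPM), whose ranges overlapped, and lowest in microglia-like cells (161 ± 18.3 CPM) and the unnamed cluster (162 ± 17.4 CPM). Card9 lay between 12.3 ± 1.90 CPM in infiltrating macrophage-like and 22.8 ± 8.503 CPM in neutrophil-like cells, and each class overlapped in range with the next in the order. From the lowest to the highest class mean, Clec4e went from 2.64 to 986 CPM, Clec7a from 125 to 592 CPM, Syk from 161 to 664 CPM, Fcer1g from 1177 to 3347 CPM and Card9 from 12.3 to 22.8 CPM.

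**Figure D2:**
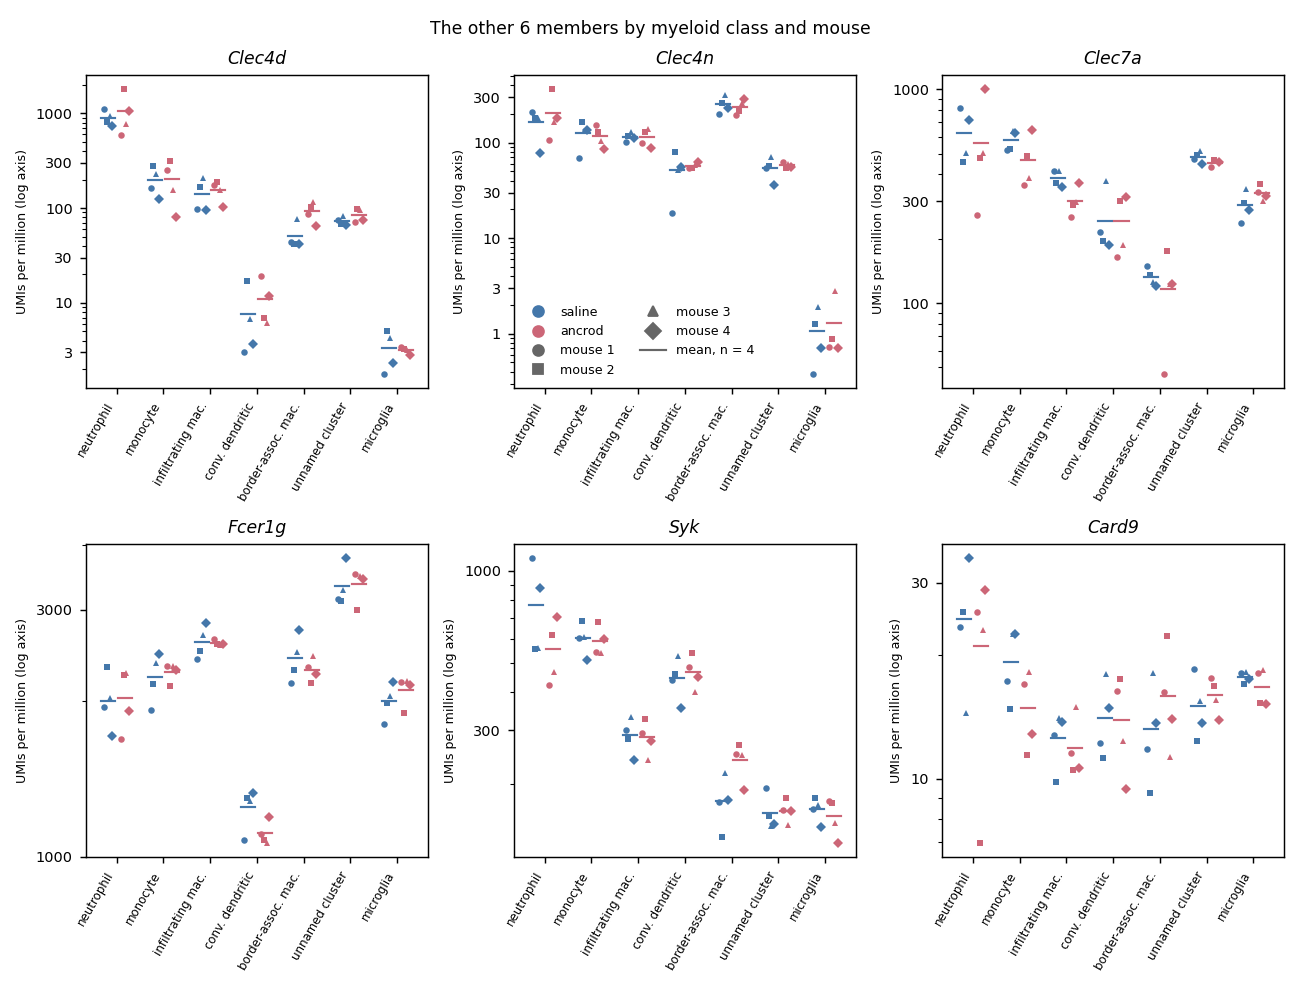
Levels of the other 6 members on log axes, in CPM of the class, in 7 myeloid classes. Points are mice and lines are means of 4 mice. Clec4d, Clec4n and Clec4e share low values in microglia-like cells, whereas Clec7a stands at 307 CPM there and Fcer1g, Syk and Card9 are present in every class.

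The classes were not uniform. Among infiltrating macrophage-like cells, the cluster led by Lgals3, Cd36 and S100a4 (692 cells) had a Clec4e level of 184 ± 72.2 CPM in control mice and 249 ± 85.0 CPM in ancrod mice (SD, n = 4). The larger cluster led by Ms4a7, Gpnmb and Lyz2 (1473 cells) had 27.7 ± 6.49 and 29.3 ± 6.46 CPM. The dividing cluster led by Pclaf and Top2a had 64.5 ± 20.1 CPM in control mice and 101 ± 15.3 CPM in ancrod mice. The Lgals3 cluster made up 26.1% ± 12.2 of the class in control mice and 23.0% ± 8.25 in ancrod mice. Summed over mice, monocyte-like cells led by Plac8 and Chil3 had 249 CPM and those led by Adgre4 and Ace 187 CPM. In the dendritic-like cluster led by Clec9a and Xcr1, markers of the type 1 lineage, no UMI of Clec4e, Clec4d or Clec4n was found in 78 cells and Fcer1g was 108 CPM, against 1341 CPM in the larger dendritic-like cluster. In microglia-like cells 3 clusters had means above 5 CPM in both groups. The one led by Lpl, Olr1 and Cd14 had 5.47 ± 5.10 CPM in control and 5.04 ± 2.43 CPM in ancrod mice, and the dividing one led by Mki67 and Top2a had 17.3 ± 11.5 and 6.44 ± 3.70 CPM. All other named microglia-like clusters had means below 2 CPM.

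**Figure D3:**
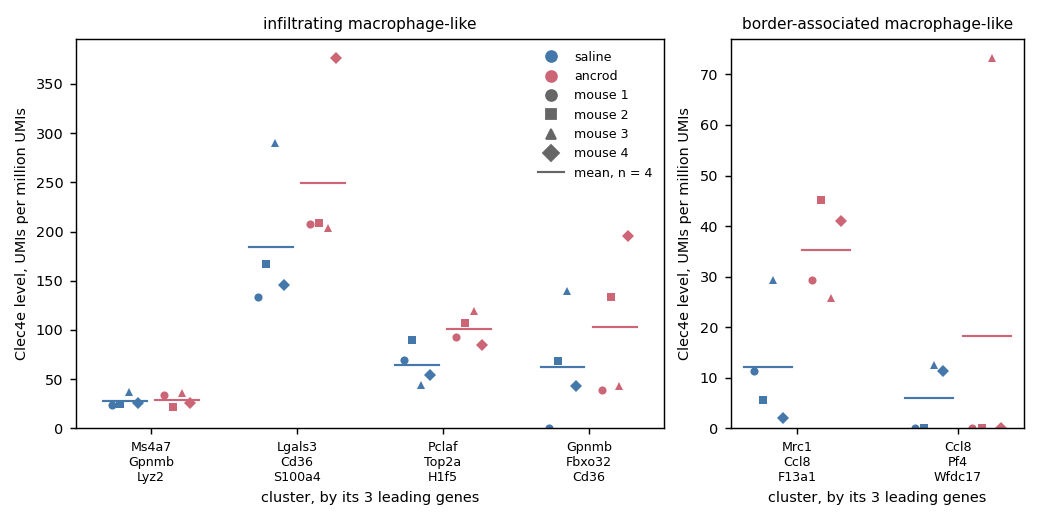
Clec4e level, in CPM, in the 4 clusters of infiltrating macrophage-like cells (left) and the 2 clusters of border-associated macrophage-like cells (right), each named by its leading genes. Points are mice and lines are means of 4 mice. The Lgals3 cluster stands at 184 and 249 CPM in control and ancrod mice, above the Ms4a7 cluster at 27.7 and 29.3 CPM.

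Cells with a Clec4e UMI also carried Clec4d more often. Among infiltrating macrophage-like cells, 88.7% of the 1067 cells with a Clec4e UMI held a Clec4d UMI, against 63.3% of the 1603 cells without one, at median depths of 23847 and 23134 UMIs. For Clec4n these shares were 69.9% and 51.4%, while for Clec7a they were 87.5% and 85.8%. In monocyte-like cells 78.7% of cells with and 42.6% of cells without a Clec4e UMI held Clec4d, at median depths of 15039 and 14160 UMIs. These are shares of cells of all mice together and carry no test. Over the 48 sums of 6 classes in 8 mice, log2(CPM + 1) of Clec4e had a Pearson correlation of 0.90 with Clec4d, 0.81 with Syk, 0.67 with Clec4n, 0.58 with Clec7a, 0.26 with Card9 and 0.16 with Fcer1g. Of 9500 genes with a mean of at least 5 CPM, members left out, the most alike were Msrb1 (0.96), Sgms2 (0.94), Gm5150, Card19 and Pilrb2 (0.93 each). The sums of a mouse share a library, and those of a class share its cells, so the coefficients describe the order of the classes.

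Ancrod and control mice were then compared within each class, to ask whether fibrinogen depletion went with a change of the members outside the border-associated macrophages. No member passed the threshold of 0.05 on the adjusted p-value of edgeR's quasi-likelihood test in the 5 classes tested. The same test called 0.0% of all genes in each of them. At an unadjusted p under 0.05 it called 4.25% of 13028 genes in microglia-like, 2.71% of 10977 in infiltrating macrophage-like, 4.24% of 7245 in monocyte-like, 4.04% of 4302 in neutrophil-like and 6.07% of 8267 in dendritic-like cells. DESeq2 called 2, 1, 4, 0 and 10 genes in these classes, none of them a member. The groups overlapped in range for every member tested in every class. On the TMM-normalized scale, all ancrod mice were higher for 1.14% of genes in microglia-like, 1.07% in infiltrating macrophage-like, 1.24% in monocyte-like, 1.35% in neutrophil-like and 1.61% in dendritic-like cells, and all were lower for 1.03%, 0.683%, 1.38%, 1.42% and 1.67% in the same order. All 7 members were tested in the first 3 classes, while Card9 was too low for the test in neutrophil-like cells and Clec4d in dendritic-like cells.

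Clec4e itself had a log2 fold change, ancrod against saline, of -0.49 (SE 0.52, edgeR adjusted p = 0.944) in microglia-like and 0.19 (SE 0.24, adjusted p = 1) in infiltrating macrophage-like cells. It was -0.18 (SE 0.16, adjusted p = 1) in monocyte-like, -0.022 (SE 0.29, adjusted p = 1) in neutrophil-like and -0.048 (SE 0.46, adjusted p = 0.999) in dendritic-like cells by the same edgeR test. The share of cells with a Clec4e UMI was compared after thinning to 2000 UMIs per cell. In infiltrating macrophage-like cells it was 11.6% ± 5.32 in control mice and 11.9% ± 2.26 in ancrod mice, a difference of 0.282 percentage points (p = 0.914 and adjusted p = 0.914 in a two-sided exact permutation test). In neutrophil-like cells it was 64.1% ± 8.31 and 61.2% ± 0.942 (exact permutation p = 0.457, adjusted p = 0.914). The differences in monocyte-like, dendritic-like and microglia-like cells were -0.587, 0.671 and -0.0432 points, with an adjusted p of 0.914 in each of these exact permutation tests. With 70 arrangements of the 8 mice the smallest p this test can give is 0.0286.

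Clec7a had the smallest unadjusted p among the members, and it went in different directions in 2 classes. In infiltrating macrophage-like cells its level was 416, 363, 417 and 350 CPM in control mice 1 to 4 and 254, 289, 297 and 363 CPM in ancrod mice 1 to 4. Only ancrod mouse 4 reached the control range. The log2 fold change was -0.37 (SE 0.12), with an unadjusted p of 0.01 and an adjusted p of 1 by edgeR. In this class all 6 fibroblast markers (sum means of 12.8 CPM in control and 33.5 CPM in ancrod mice) and all 6 astrocyte markers (35.9 and 70.8 CPM) had higher means in ancrod mice, and the sum of the 8 monocyte markers was 480.4 and 346 CPM. Their part in the result was not tested. In microglia-like cells the level was 236, 292, 342 and 273 CPM in control mice and 333, 359, 301 and 319 CPM in ancrod mice. The log2 fold change was 0.23 (SE 0.13, edgeR adjusted p = 0.944). Clusters led by P3h2 and Csmd3 and by P3h2 and Pag1 made up 8.94% and 7.92% of this class in control and 4.235% and 3.155% in ancrod mice. Their Clec7a means were 80.7 and 79.3 CPM in control and 154 and 143 CPM in ancrod mice. The cluster led by Dusp2 and Arl5c, at 380 and 342 CPM, made up 4.96% and 9.82%. The part of these shares in the result was not tested. In monocyte-like cells the log2 fold change was again -0.37 (SE 0.17, unadjusted p = 0.0471, edgeR adjusted p = 1). The difference of the response between microglia-like and infiltrating macrophage-like cells was tested over mice on log2(CPM + 1), with CPM normalized by TMM. For Clec7a it was 0.62, with p = 0.0286 in the two-sided exact permutation test, the smallest p possible, and p = 0.2 after adjustment over the 7 members. For Clec4e it was -0.58 (exact permutation p = 0.0571, adjusted p = 0.2). For the other 5 members it lay between -0.14 and 0.17, with adjusted p from 0.267 to 0.8 in the same exact permutation test.

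**Figure D4:**
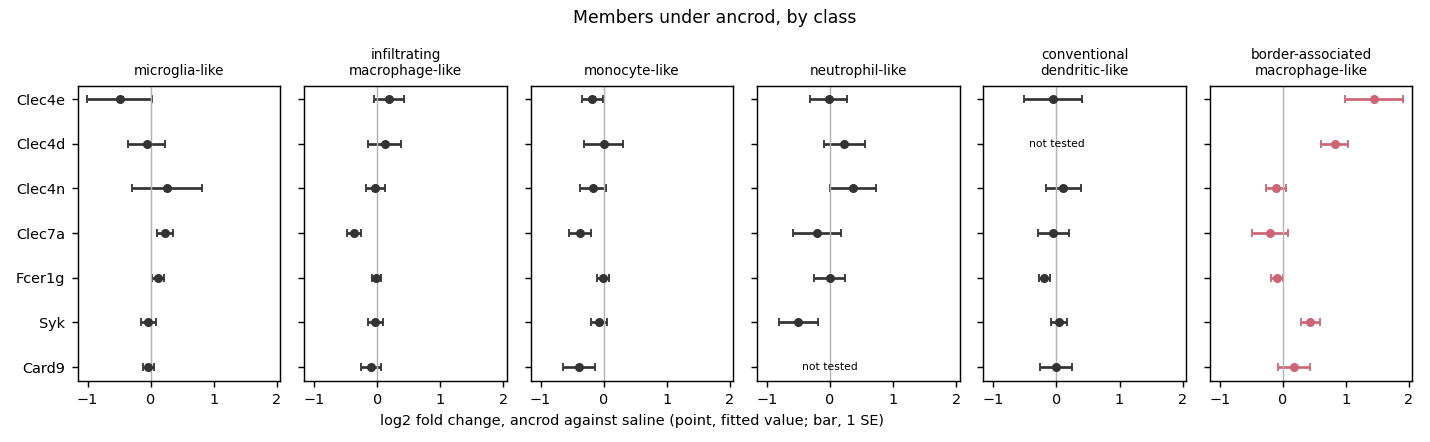
Fitted log2 fold change of each member, ancrod against saline, in 6 classes (point) with 1 standard error (bar), from edgeR. The border-associated class, in colour, carries no test because it served to choose Clec4e, and there Clec4e stands at 1.44 and Clec4d at 0.82. Clec7a lies at -0.37 in infiltrating macrophage-like and at 0.23 in microglia-like cells.

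Border-associated macrophages sit around vessels and in the coverings of the brain. The class held 360 cells from the control group and 449 from the ancrod group, with 74 to 138 per mouse, in a cluster led by Mrc1, Ccl8, F13a1 and Cd163 and a smaller cluster of low UMI counts. Its defining markers were present in both groups: the mannose receptor gene Mrc1 stood at 2690 and 2776 CPM, Pf4 at 1410 and 1428 CPM, Cd163 at 249 and 221 CPM and Lyve1 at 304 and 199.8 CPM in control and ancrod mice. Clec4e was 10.8, 5.27, 28.3 and 2.35 CPM in control mice 1 to 4 and 28.8, 43.1, 27.8 and 39.7 CPM in ancrod mice 1 to 4. The means were 11.7 ± 11.6 and 34.8 ± 7.72 CPM (SD, n = 4), and control mouse 3 reached into the ancrod range. The fitted log2 fold change was 1.44 (SE 0.46). The level in droplets of free RNA was 13.4 CPM in control mice, while endothelial-like cells stood at 0.262 CPM. The levels in border-associated cells rest on 10, 8, 67 and 5 UMIs in control mice and 101, 62, 64 and 91 UMIs in ancrod mice.

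A single cell held most of the Clec4e UMIs of control mouse 3. In that mouse, 44 of the 67 Clec4e UMIs lay in a single cell with 33981 UMIs in all. It had 4 of Clec4d, 20 of Mrc1, 7 of Pf4, none of Cd163 or Lyve1 and 1 of S100a8. The highest cell held 4 of 10, 3 of 8 and 1 of 5 in control mice 1, 2 and 4. In ancrod mice 1 to 4 it held 22 of 101, 24 of 62, 7 of 64 and 24 of 91. In ancrod mice 1, 2 and 4 it had 146, 83 and 54 UMIs of Mrc1 and 31, 20 and 0 of Cd163. Another cell of ancrod mouse 4, with 17 Clec4e UMIs, had 16 of Mrc1 and none of Cd163 or Lyve1. When the cell with the most Clec4e UMIs was left out in every mouse, the level was 6.55, 3.39, 9.84 and 1.90 CPM in control mice and 22.7, 26.9, 24.9 and 29.6 CPM in ancrod mice. The groups then did not meet. All ancrod mice were also higher for 2.1% of the 9431 genes after this removal, but the cells were picked by their Clec4e UMIs, so that share is no like background for Clec4e and nothing is read from it. Among cells with a Cd163 or Lyve1 UMI the means were 6.98 ± 4.15 and 32.2 ± 11.3 CPM, the groups did not meet, as for 2.0% of genes, and the fitted log2 fold change was 2.29. With all cells of the class, the fitted value was 2.70 without control mouse 3 and 0.95 in the 3 mice per group of batch 1 alone. The alternatives that select cells were chosen after the values were seen. As Clec4e was chosen in this comparison, nothing is read from the separation of its groups under any of them.

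The number of cells with the transcript differed in the same way. A Clec4e UMI was found in 4 of 74, 4 of 87, 14 of 117 and 5 of 82 cells in the control group and in 22 of 138, 10 of 81, 23 of 125 and 16 of 105 cells in the ancrod group. These are 7.02% ± 3.36 and 15.5% ± 2.49 of cells (SD, n = 4), against 0.348% in endothelial-like cells. The highest control mouse was at 11.97% and the lowest ancrod mouse at 12.3%. Thinned to 2000 UMIs per cell, the shares were 1.49% ± 0.647 in control and 4.39% ± 1.10 in ancrod mice, with ranges of 0.786 to 2.35% and 3.49 to 5.87%, against 0.0501% in endothelial-like cells. The share of all genes that separate the groups by this measure was not computed, and as Clec4e was chosen in this comparison nothing is read from the separation. Cells with 5 or more Clec4e UMIs numbered 0, 0, 1 and 0 in control mice and 7, 5, 4 and 5 in ancrod mice. Median depth per cell was 11820 to 25957 UMIs in control mice and 14173 to 25111 UMIs in ancrod mice.

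**Figure D5:**
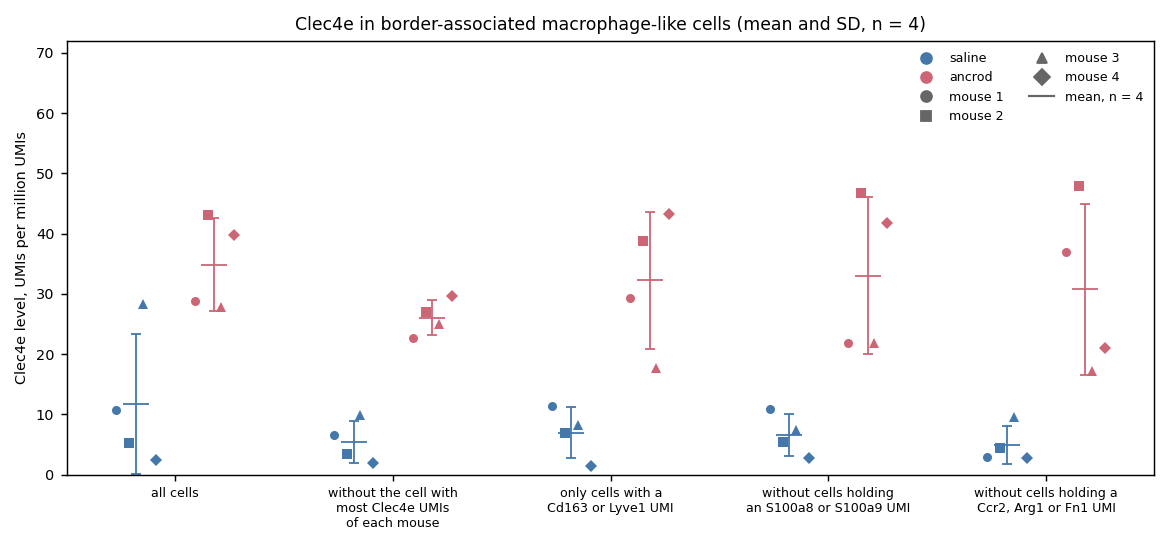
Clec4e level in border-associated macrophage-like cells, in CPM, for all cells and for 4 selections of cells. Points are mice, with the mean and SD of 4 mice per group. Control mouse 3 is at 28.3 CPM with all cells and at 9.84 CPM without the cell that holds the most Clec4e UMIs.

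Other members moved less in these cells. Clec4d was 44.1, 41.5, 75.9 and 41.9 CPM in control mice and 86.8, 103, 116 and 65.0 CPM in ancrod mice, a fitted log2 fold change of 0.82 (SE 0.22). Here too control mouse 3 stood apart from the other controls and above ancrod mouse 4. Syk was 175, 134, 218 and 177 CPM in control mice and 252, 269, 249 and 192 CPM in ancrod mice, with a log2 fold change of 0.43 (SE 0.15), and only ancrod mouse 4 lay within the control range. Card9 (0.18, SE 0.26), Fcer1g (-0.090, SE 0.096), Clec4n (-0.11, SE 0.16) and Clec7a (-0.21, SE 0.29) overlapped in range between the groups. By its level in CPM, none of the 7 members separated the groups with all cells counted. On the TMM-normalized scale, all ancrod mice were higher for 1.86% of the 9431 genes and lower for 1.65%. These shares are on another scale than the count of members. Since the comparison served to choose Clec4e, nothing is read from this count.

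Most markers of infiltrating macrophages had a higher mean in ancrod mice in this class, but the groups overlapped in their sum. Of the 8 markers, 7 had a higher mean and 1 a lower one. Among the 7, at low levels beside the sum of the list, were Fn1 (44.0 and 152 CPM), Ccr2 (27.1 and 71.7 CPM) and Arg1 (4.60 and 26.2 CPM). All ancrod mice were above all control mice for 1 of the 8, beside 1.86% of all genes on the TMM-normalized scale, and nothing is read from this count. The sum of the list ranged from 11386 to 12733 CPM in control and from 10549 to 14637 CPM in ancrod mice, with means of 12137 and 12611 CPM. Infiltrating macrophage-like cells gave the same count, with 7 markers higher and 1 lower after ancrod. Whether the markers varied together with Clec4e was not tested. A UMI of Ccr2, Arg1 or Fn1 was found in 26.5% ± 6.52 of the cells in control mice and 43.5% ± 4.89 of those in ancrod mice. In cells with none of these, Clec4e was 2.85, 4.35, 9.54 and 2.81 CPM in control mice and 36.9, 47.8, 17.1 and 21.0 CPM in ancrod mice, from 2 to 12 and 19 to 63 UMIs per mouse, and the groups did not meet, as for 1.48% of genes under this choice. Of the 8 neutrophil markers 4 had a higher mean in ancrod mice, and their sum was 105 to 131 CPM in control and 101 to 154 CPM in ancrod mice, of which Csf3r gave most. S100a8 was 12.8 and 14.8 CPM, S100a9 1.12 and 10.1 CPM and Retnlg 0.118 and 0.0710 CPM in control and ancrod mice. Without cells holding an S100a8 or S100a9 UMI, Clec4e was 6.60 ± 3.43 and 33.0 ± 13.1 CPM, and the groups did not meet, as for 1.93% of genes. Clec4e was chosen in this comparison, so nothing is read from its separation under either choice of cells. The sum of the 8 monocyte markers was 9.89 to 53.2 CPM in control and 7.65 to 63.5 CPM in ancrod mice. All 6 fibroblast markers had a higher mean in ancrod mice, with sums of 6.75 to 20.2 CPM in control and 20.9 to 58.9 CPM in ancrod mice. So had all 6 astrocyte markers, with sums of 20.7 to 65.9 and 53.6 to 193 CPM, and all 6 neuron markers, with sums of 1.08 to 6.75 and 5.41 to 14.8 CPM. Their part in the result was not tested.

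The wider route was described by 5 lists of 80 genes, chosen with earlier results of these data known: 17 related receptors, 14 adaptors, Fc receptors, kinases and phosphatases, 26 signalling and transcription factors, 20 induced genes and 3 genes of endogenous ligands. No gene of any list passed the edgeR threshold in the 5 classes tested. At an unadjusted p under 0.05, 1 of 73 tested list genes was found in microglia-like cells, beside 4.25% of all genes. These numbers were 5 of 70 in infiltrating macrophage-like (2.71% of all genes), 5 of 62 in monocyte-like (4.24%), 1 of 52 in neutrophil-like (4.04%) and 6 of 67 in dendritic-like cells (6.07%). The induced genes, such as chemokines and cytokines, had a median log2 fold change of 0.13 in microglia-like, -0.011 in infiltrating macrophage-like and 0.02 in neutrophil-like cells. It was -0.30 in monocyte-like and -0.31 in dendritic-like cells, beside medians of all genes that lay between -0.003 and 0.025.

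In border-associated macrophage-like cells 11 of the 13 measured induced genes had a fold change above 0 and 2 below, with a median log2 fold change of 0.29 beside -0.008 over all genes. On the TMM-normalized scale 0 of the 13 were higher and 0 lower in all ancrod mice. In microglia-like cells 13 of 17 induced genes were above 0 and 4 below. Since the border-associated class served to choose Clec4e, nothing is read from its counts. The largest fold changes of list genes in this class were those of Cd209b, a lectin (-1.50, SE 0.74), the Src family kinase gene Fgr (1.23, SE 0.41), the chemokine gene Cxcl1 (0.81, SE 0.36) and Il10 (0.63, SE 0.37). Cd209b was 6.12 to 17.1 CPM in control and 0.0 to 12.2 CPM in ancrod mice, and its groups overlapped. Fgr was 4.34 ± 1.71 CPM in control and 11.04 ± 6.07 CPM in ancrod mice, with ranges of 2.64 to 6.33 and 6.94 to 20.1 CPM. Such values rest on few UMIs, as the class held 929966 UMIs of all genes in control mouse 1. For Fgr all ancrod mice were higher. On the TMM-normalized scale this also held for Fgr, as for 1.86% of the 9431 genes. On that scale 2 of the 66 measured list genes were higher in all ancrod mice and 1 was lower in all of them, and nothing is read from this count. Cxcl1 was 42.7 ± 28.6 and 79.4 ± 24.4 CPM and its groups overlapped. Of the 26 signalling factors 17 were above and 9 below 0, with a median of 0.066. The other lists leaned lower: 4 related receptors were above and 7 below 0 (median -0.07), 4 adaptors, Fc receptors, kinases and phosphatases were above and 9 below (median -0.10), and 1 ligand gene was above and 2 below. Over all lists 37 genes were above and 29 below 0. The list genes with the largest fold changes in the tested classes went in both directions. In microglia-like cells they were Clec9a (0.58), a lectin gene of type 1 dendritic cells at under 1 CPM in both group means, Il23a (-0.48), Nos2 (-0.35) and Il1b (0.29), all with an edgeR adjusted p of 0.944. On the TMM-normalized scale Clec9a was higher in all ancrod mice there, as were 1.14% of genes, whereas in CPM the groups met. In infiltrating macrophage-like cells they were Cd209a (-1.47), Clec9a (1.25), Cxcl1 (0.89) and Clec4b1 (-0.62), each with an edgeR adjusted p of 1. In neutrophil-like cells they were Trem2 (-0.86), Cxcl2 (0.74), Ccl3 (0.60) and Ccl4 (0.59), with edgeR adjusted p of 0.939 to 0.94. In monocyte-like cells the largest was Mrc1 at 1.41 (SE 0.66, unadjusted p = 0.0493, edgeR adjusted p = 1), and Ccl4 had -0.81 (SE 0.34, edgeR adjusted p = 1). In the same class the chemokine gene Ccl3 was 151 ± 72.4 CPM in control and 54.0 ± 25.5 CPM in ancrod mice, a log2 fold change of -1.23 (SE 0.30, unadjusted p = 0.00115, edgeR adjusted p = 0.773), and Malt1, the partner of Card9, had -0.42 (SE 0.15, edgeR adjusted p = 1). Ccl3 was lower in all ancrod mice than in any control mouse, as were 1.38% of the 7245 genes in this class on the TMM-normalized scale. On that scale 3 of the 62 tested list genes were lower in all ancrod mice, Ccl3 and Malt1 among them, and none was higher in all. In CPM without TMM factors the groups met for Malt1, at 319 to 384 CPM in control and 182 to 332 CPM in ancrod mice. In dendritic-like cells the largest value was that of Egr2, at -1.45 (SE 0.47, edgeR adjusted p = 0.695), followed by Ccl3 (-0.94), Tnf (-0.83) and Clec9a (0.80), with edgeR adjusted p of 0.697 to 0.852.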

How the data were processed

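The authors aligned reads to GRCm39 (mm39) with Cell Ranger 7.1.0, which uses STAR, counted exonic and intronic reads, and deposited raw UMI counts per gene for every droplet, without normalization. Here droplets with at least 2000 UMIs and less than 20% mitochondrial UMIs were kept. Doublets were removed at 0.8% per 1000 droplets with a Scrublet-type score. Cells were clustered with Leiden (3000 variable genes without the members, 20 components, 20 neighbours, resolution 2, seed 1), and the myeloid cells were then clustered on their own. Clusters were named after the marker list with the best score and left unnamed where other markers led or counts were low. UMIs were summed per mouse and class (at least 10 cells), filtered with filterByExpr, normalized by TMM and tested with edgeR 4.0.16 in R 4.3.3, with Benjamini-Hochberg adjustment over all genes. DESeq2 1.42.0 was an alternative. Fold changes come from these fits, and levels are UMIs per 1000000 UMIs. Shares and differences of response were compared with exact permutation tests over mice, with log2(CPM + 1) of TMM-normalized CPM for the latter. Replicates were mice.

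The members and lists were chosen with earlier results of these data known. The genes named were the 7 members in every class, up to 4 list genes with the largest fold change per class where none passed the threshold, and the 5 genes most like Clec4e. Fgr was further described because its groups did not overlap, and the clusters, marker genes and single cell were described after their values were seen. Promoter windows were read from GRCm39 with starts from GENCODE. In simulated counts on the genes tested, edgeR recovered 86% of genes changed by a log2 fold change of 1 in microglia-like, 84% in infiltrating macrophage-like, 75% in monocyte-like, 31% in neutrophil-like and 72% in dendritic-like cells. The counts were drawn with the trended dispersion and the shares are over genes of all levels. They do not give the rate for a single member, such as Clec4e at 2.64 CPM in microglia-like cells. Protein sequences were not used here.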

Additional observations from a re-analysis of the deposited data

Results flagged for a closer look

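In 98 groups of 4 mice, a mouse was compared with the others of its group by its gap to the nearest of them relative to the range, and chance alone marks about 1 group in 20. Of the values that stood apart in this way, Clec4d in border-associated macrophage-like cells was 75.9 CPM in control mouse 3. The cell of this mouse with 44 Clec4e UMIs held 4 of Clec4d, beside 373 in this class over the control mice. Clec7a in conventional dendritic-like cells was 371 CPM in control mouse 3. Clec4n in microglia-like cells was 2.81 CPM in ancrod mouse 3. Fcer1g was 1893 CPM in microglia-like cells of ancrod mouse 2, 2639 CPM in infiltrating macrophage-like cells of ancrod mouse 1 and 2999.6 CPM in the unnamed cluster led by Gal, Gpnmb, Spp1 and Lyz2 of ancrod mouse 2.

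The response of Clec7a to ancrod differed between microglia-like and infiltrating macrophage-like cells by 0.62 on the TMM-normalized log2(CPM + 1) scale. It was 0.25 in the former against -0.37 in the latter. The exact permutation test gave p = 0.0286 and p = 0.2 after adjustment over the 7 members, so the difference did not pass the correction.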

How the results depend on the processing

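In the 5 tested classes, no member passed the threshold in the fits that could be run. Dendritic-like cells could not be fitted at resolution 1, where 1 mouse held the minimum of 10 cells, and the cause of the following changes was not tested. Counts of genes called, 0 with edgeR, were 2 in microglia-like, 1 in infiltrating macrophage-like, 4 in monocyte-like and 10 in dendritic-like cells with DESeq2, 24, 116 and 4 in monocyte-like, neutrophil-like and dendritic-like cells with no filter on low counts, and 3 in monocyte-like cells at resolution 1, where 2 ancrod and 3 control mice held enough cells (at most 32 in a mouse), which also holds for the value of Clec4d there. Leaving out 1 mouse gave 0 to 1 in infiltrating macrophage-like cells. Neutrophil-like cells held as few as 11 cells in a mouse, where depth limits every value.

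In microglia-like and infiltrating macrophage-like cells, same-numbered mice did not deviate together (correlations from -0.196 to 0.25). Only control mouse 4, in infiltrating macrophage-like cells, correlated best with the ancrod mouse of its own number. The other classes were not examined in this way. The replicate block gave 0 calls in each of the 5 tested classes, and a Clec4e log2 fold change of 1.64 in border-associated macrophage-like cells. It turned the sign of Clec4d in microglia-like (0.053) and monocyte-like cells (-0.13) and of Clec4e in neutrophil-like (0.0026) and dendritic-like cells (0.049).

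Of the members' log2 fold changes in the 5 tested classes, 290 kept and 33 changed direction under the other alternatives. None of them passed the threshold in either direction. With no doublet removal these were 0.054 for Clec4d in microglia-like, 0.0073 for Clec4n in infiltrating macrophage-like, 0.0074 for Fcer1g and 0.022 for Clec4e in neutrophil-like and 0.0073 for Clec4e in dendritic-like cells. At resolution 1 the infiltrating macrophage-like class was another set of cells. A cluster led by Chil3, Plac8 and Ccr2 stayed unnamed there. The class then held a cluster led by Gpnmb, Lyz2 and Ms4a7, with Spp1 and Gal among its leading genes. The changed values at resolution 1 were 0.10 for Clec4n and 0.011 for Syk in infiltrating macrophage-like, -0.63 for Clec4d in monocyte-like, and 0.070 for Fcer1g and 0.084 for Clec4e in neutrophil-like cells. In batch 1 alone they were 0.019 for Fcer1g and 0.046 for Clec4n in infiltrating macrophage-like, 0.039 for Fcer1g in monocyte-like, 0.015 for Fcer1g and 0.031 for Clec4e in neutrophil-like, and 0.11 for Card9 and -0.026 for Syk in dendritic-like cells. With library size only they were 0.031 for Fcer1g in monocyte-like, 0.029 for Fcer1g and 0.032 for Clec4e in neutrophil-like and 0.020 for Card9 in dendritic-like cells. With no filter they were -0.012 for Clec4d in monocyte-like, 0.045 for Fcer1g and 0.042 for Clec4e in neutrophil-like and 0.0028 for Card9 in dendritic-like cells. Clec4d in monocyte-like cells was -0.015 with DESeq2, -0.098 with batch as a covariate and -0.0057 at 5000 UMIs, and Clec4e in dendritic-like cells 0.10 with DESeq2.

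Leaving out 1 mouse, log2 fold changes whose sign turned ranged in microglia-like cells from -0.098 to 0.012 for Card9, -0.47 to 0.72 for Clec4n, -0.28 to 0.21 for Clec4d and -0.12 to 0.040 for Syk. In infiltrating macrophage-like cells they ranged from -0.058 to 0.020 for Fcer1g, -0.15 to 0.066 for Clec4n, -0.038 to 0.38 for Clec4d and -0.12 to 0.057 for Syk, and in monocyte-like cells from -0.069 to 0.040 for Fcer1g and -0.26 to 0.21 for Clec4d. In neutrophil-like cells they ranged from -0.072 to 0.053 for Fcer1g, -0.12 to 0.60 for Clec4n, -0.14 to 0.42 for Clec4d, -0.17 to 0.18 for Clec4e and -0.67 to 0.027 for Clec7a. In dendritic-like cells they ranged from -0.14 to 0.16 for Card9, -0.15 to 0.40 for Clec4n, -0.48 to 0.30 for Clec4e, -0.20 to 0.23 for Clec7a and -0.035 to 0.12 for Syk. Clec4e kept its sign but varied in size in microglia-like (-0.89 to -0.042), infiltrating macrophage-like (0.024 to 0.48) and monocyte-like cells (-0.28 to -0.074).

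In border-associated macrophage-like cells the Clec4e value was 2.52 without cells holding a Ccr2, Arg1 or Fn1 UMI and 1.04 to 2.70 without 1 mouse, highest without control mouse 3. Without 1 mouse the values there ranged from -0.46 to 0.078 for Clec7a, -0.21 to 0.022 for Clec4n and 0.023 to 0.40 for Card9, so the sign of Clec7a and Clec4n turned, and Clec4n was 0.16 without the Ccr2, Arg1 or Fn1 cells. The difference of the Clec4e share in monocyte-like cells was 1.91 points at 5000 UMIs and 3.31 points without thinning, and without 1 mouse it ranged from -2.39 to 1.14 there, -1.52 to 2.33 in infiltrating macrophage-like and -0.10 to 0.028 in microglia-like cells. For the differences of response, Clec4e was -0.41 with a pseudocount of 5 (exact permutation p = 0.0286) and -0.70 to -0.39 without 1 mouse. Fcer1g was 0.18 at resolution 1 (exact permutation p = 0.0286), where the infiltrating macrophage-like class was another set of cells. Clec7a was 0.62 with p = 0.05 in the permutation within batches and p = 0.125 in the sign-flip permutation with the replicate block, the smallest p each can give, and 0.48 to 0.73 without 1 mouse. Card9 was -0.0038 with library size only, -0.016 at resolution 1 and -0.024 to 0.14 without 1 mouse, and Syk -0.078 to 0.062 without 1 mouse.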
